A study of Mus musculus with 4 samples.

Results

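The 35 genes described here are listed as targets of the transcription factor p53 and act in DNA repair, cell death, signalling and metabolism. Whether p53 acts on each of them in mouse or in these cells was not tested. They were chosen by gene symbol as known p53 targets, with earlier results of these data in view, leaving out Mdm2, Cdkn1a and the BCL2 family, and each symbol matched 1 of the 55335 gene rows of the expression table. Of the 35, 30 reached an FPKM (fragments counted on a gene, scaled to its exonic length and to library depth) of at least 1 in at least 2 libraries and were among the 11955 genes tested. Perp, Gdf15, Jag2, Plcd4 and Pltp did not reach that level and are given by their FPKM alone. Tnfrsf18 reached it only through the 2 libraries in which it was higher, so its difference follows in part from the filter.

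The study measured 4 RNA-seq libraries of CT26, a mouse colon carcinoma line. CT26_102 and CT26_CTL were labelled FOSL2-WT with PBS, and CT26_102_R and CT26_CTL_R were labelled FOSL2-KO with chemoradiotherapy, while the design text speaks of knockdown cells. The sources used here do not give the drugs, the radiation dose, the time, what the parts of the titles mean or whether an edited line was 1 clone. Genotype and treatment changed together between the labelled groups and cannot be told apart. The titles divide the libraries in 2 ways, by the suffix R (which is also the labelled group) and by the stem CT26_102 or CT26_CTL. Separate cultures are not mentioned for the libraries of a group, so any p-value refers to these 4 samples alone. In the fit of stem and suffix together, the spread is how far the difference with R varied between the 2 stems, moderated over genes. That spread may be technical or may hold a difference in response between the stems, and these cannot be told apart.

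Fosl2, the gene named in the genotype labels, was not lower in the libraries labelled FOSL2-KO. Its FPKM was 9.35 in CT26_102, 16 in the library labelled FOSL2-KO of that stem (CT26_102_R), 12.7 in CT26_CTL and 19.2 in the library labelled FOSL2-KO of the other stem (CT26_CTL_R), so both libraries labelled FOSL2-KO had the higher transcript level. The transcript therefore does not show the labelled loss, but a transcript level alone cannot tell whether a gene was knocked out. Whether Fosl2 was lost was not tested, and every direction below refers to the library titles. Of 8 markers of colon epithelium, Epcam and Cdx2 were listed at 0 in the 4 libraries. Cdh1 (at most 0.0202), Krt19 (at most 0.142) and Vil1 (at most 0.151) were near 0. Krt8 (0.461 to 3.82), Krt18 (34.7 to 76.5) and Krt20 (24.5 to 36.8) were present and tested, and none was called with R. Krt8 was called higher in the CT26_102 stem (1.45, limma adjusted p = 0.01422). The list's summed FPKM was 65.872 and 67.666 without R and 69.848 and 114.148 with it. The labels call the cells both mesenchymal and colon adenocarcinoma, and the mesenchymal marker Vim was at 782 and 639.9 FPKM without R and 534.7 and 503.1 with it. Of 4 mesenchymal markers tested, Vim (difference -0.45, limma adjusted p = 0.0437) and Col1a2 (-0.82, limma adjusted p = 0.04356) fell with R and none rose, and the list's summed FPKM was 960.14 and 751.77 without R and 621.907 and 583.241 with it. Leukocyte genes were at or near 0 (Cd3e 0, Ptprc at most 0.088), with the exception of the lysosomal and macrophage gene Cd68, at 8.49 and 28.3 FPKM without R and 63.9 and 86.4 with it. Of 7 rows of leukocyte markers, Cd68 was the 1 that could be tested, the list's summed FPKM was 8.818 and 28.82 without R and 64.956 and 86.867 with it, and without Cd68 the sum was at most 1.056. The part of the mesenchymal and leukocyte markers in the differences of the members was not tested. Of the endothelial markers, Cdh5 was listed at 0 and Pecam1 summed with it to 0.369 and 0.482 FPKM in the CT26_102 stem and to 0.006 in each CT26_CTL library, and the erythroid markers summed to at most 1.222 FPKM. Depth, read from the spacing of low FPKM values, was about 21.61 to 26.37 M reads, and 11280 to 11904 genes per library had an FPKM of at least 1.

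p53 is kept low in unstressed cells because Mdm2 marks it for degradation. DNA damage frees it to bind response elements near its target genes and to raise their transcription. Besides cell cycle arrest and the BCL2 family, its targets include factors of nucleotide excision repair (which cuts out bulky lesions), the apoptosome, death receptors, phosphatase and kinase regulators, and enzymes of small-molecule metabolism. In these libraries Trp53 itself, which encodes p53, had an FPKM of 34.3 in CT26_102 and 60.8 in CT26_102_R, and of 30.5 in CT26_CTL and 43.9 in CT26_CTL_R. It rose with R by 0.66 on the log2(FPKM + 1) scale (SE 0.13, limma adjusted p = 0.04395), and the other family members Trp63 and Trp73 stayed below the level that could be tested.

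In the libraries with R, 19 of the 30 members tested rose, none fell and 11 did not pass the test. The 19 include Tnfrsf18, which passed the filter through the libraries with R alone, so its call follows in part from the filter. Dcxr, Ercc5, Phlda3 and Pidd1 had the largest called differences, at 1.83 to 2.45 on the log2 scale, and all 5 tested genes of cell death and all 6 tested genes of metabolism and transport were among those that rose. Of the 15 signalling genes tested 7 rose, and of the 4 genes of repair and lesion bypass 1 did. The test was limma with the title stem as a second term and Benjamini-Hochberg adjustment over 11955 genes, of which 7.57% were called higher and 5.32% lower with R. The median log2 difference was 0.789 over the members tested and 0.004 over all tested genes. This fit leaves 1 residual degree of freedom, and limma called 0 members at an adjusted p of 0.05 without the stem term (15 had an unadjusted p under 0.05) and 0 without the filter on low values (25 of 35 had). The share of calls that were higher was 58.7% of all calls, against 48.1% after upper-quartile scaling and 42% after scaling each library to the same sum, and the 19 members were still called after the first of these and 16 after the second.

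**Figure D1:**
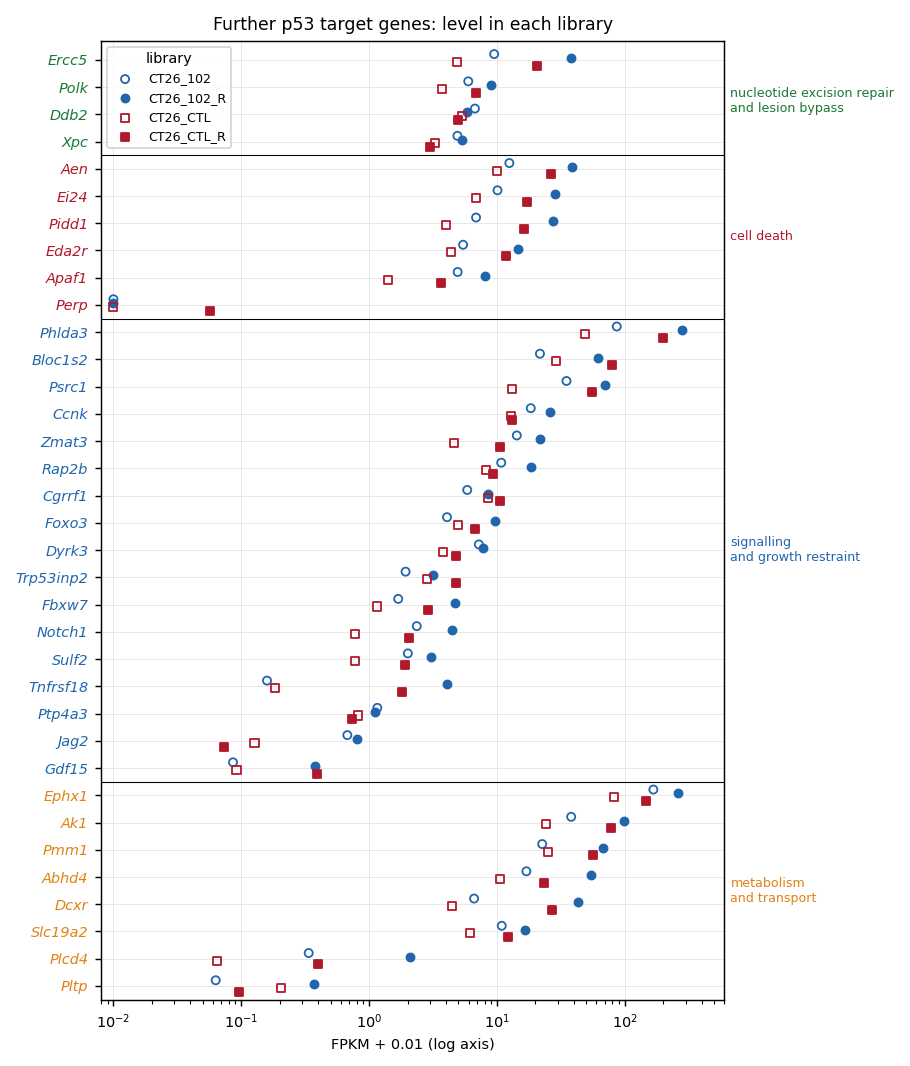
FPKM + 0.01 of the 35 genes in the 4 libraries on a log axis, grouped by role, with open and filled points for libraries without and with R, blue circles for the CT26_102 stem and red squares for the CT26_CTL stem. Each point is 1 library. Dcxr, Ercc5, Pidd1 and Phlda3 show both libraries with R well above both without, whereas the points of Ddb2, Xpc and Ptp4a3 lie close together.

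Metabolism held the member with the largest called difference on the log2(FPKM + 1) scale. Dcxr, the dicarbonyl and L-xylulose reductase that clears reactive carbonyl compounds (chr11:120725399-120727281, minus strand, GRCm38), had an FPKM of 6.62 in CT26_102 and 42.9 in CT26_102_R, and of 4.41 in CT26_CTL and 27 in CT26_CTL_R. Both libraries with R were far above both without, by 6.47 times in the CT26_102 stem and 6.14 times in the CT26_CTL stem. The fitted log2 difference was 2.45 (SE 0.13, limma adjusted p = 0.0117), which ranks 19 of the 11955 genes ordered from the most positive difference. Ak1, adenylate kinase 1, which interconverts adenine nucleotides (chr2:32621758-32635058), was at 38.1, 98.3, 24.4 and 78 FPKM in CT26_102, CT26_102_R, CT26_CTL and CT26_CTL_R, the order of libraries used from here on. It rose by 1.49 (SE 0.13, limma adjusted p = 0.01744), with no overlap between libraries with and without R. Abhd4, a hydrolase of N-acyl phospholipids (chr14:54254188-54270637), was at 17, 54.6, 10.6 and 23.4 FPKM and rose by 1.35 (SE 0.17, limma adjusted p = 0.02371). The ratio was 3.2 in the CT26_102 stem and 2.2 in the other.

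Pmm1, phosphomannomutase 1 (chr15:81951108-81960930), was at 22.6, 67.9, 25.1 and 56.2 FPKM and rose by 1.34 (SE 0.15, limma adjusted p = 0.01983). Both libraries with R were above both without, by 3 times in the CT26_102 stem and 2.24 times in the other. Ephx1, the microsomal epoxide hydrolase of xenobiotic metabolism (chr1:180976210-181020904), was among the most abundant members at 167.5, 263.1, 82 and 145.4 FPKM. It rose by 0.73 (SE 0.11, limma adjusted p = 0.0271), although CT26_CTL_R stayed below CT26_102, so the groups overlapped and the call rests on the stem term. Slc19a2, the high-affinity thiamine transporter (chr1:164249046-164265385), was at 10.9, 16.6, 6.11 and 12.3 FPKM and rose by 0.73 (SE 0.15, limma adjusted p = 0.0442). Its call was lost with a pseudocount of 0.1, with median-of-ratios scaling, with scaling to the same sum and without the mean-variance trend.

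Among the death genes, Pidd1, the p53-induced scaffold that activates caspase-2 (chr7:141438113-141444025), was at 6.86, 27.5, 3.99 and 16.4 FPKM. The ratio of R to none was 4.01 in the CT26_102 stem and 4.1 in the other, and the fitted difference was 1.83 (SE 0.13, limma adjusted p = 0.01342). Aen, the apoptosis-enhancing nuclease (chr7:78895854-78911209), was at 12.5, 38.6, 10 and 26.4 FPKM and rose by 1.43 (SE 0.13, limma adjusted p = 0.01795). Both genes had clearly separate levels with and without R. Ei24, an endoplasmic reticulum membrane protein also known as PIG8 (chr9:36779159-36797393), was at 10.1, 28.6, 6.88 and 17.2 FPKM and rose by 1.31 (SE 0.13, limma adjusted p = 0.0187). Eda2r, the X-linked receptor for the A2 form of ectodysplasin (chrX:97333840-97377216), was at 5.43, 14.7, 4.36 and 11.7 FPKM, and its ratios of 2.71 and 2.68 in the 2 stems were nearly equal. It rose by 1.27 (SE 0.13, limma adjusted p = 0.0187).

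Apaf1, the apoptosome scaffold that binds cytochrome c and activates caspase-9 (chr10:90989311-91082770), was at 4.92, 8.01, 1.4 and 3.62 FPKM. It rose by 0.77 (SE 0.16, limma adjusted p = 0.0431), with CT26_CTL_R below CT26_102, so that libraries with and without R overlapped. Like the calls of Slc19a2 and Zmat3, that of Apaf1 was lost with a pseudocount of 0.1, with median-of-ratios scaling and with scaling to the same sum. Perp, a tetraspan membrane protein of desmosomes and apoptosis, was listed at 0 in 3 libraries and at 0.0471 FPKM in CT26_CTL_R, which is about 2 estimated reads.

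Phlda3, which competes with Akt for membrane lipids (chr1:135766119-135769136), was at 86.6, 282.1, 49 and 197.6 FPKM. It had the largest difference of the signalling genes on the log2(FPKM + 1) scale. Both libraries with R were above both without, by 3.26 times in the CT26_102 stem and 4.04 times in the other, and the fitted difference was 1.84 (SE 0.12, limma adjusted p = 0.01208). Bloc1s2, a subunit of a lysosome-related organelle complex (chr19:44139246-44146446), was at 21.7, 61.8, 29.1 and 79.9 FPKM and rose by 1.44 (SE 0.12, limma adjusted p = 0.0161). Unlike most members it was lower in the CT26_102 stem than in the CT26_CTL stem, with and without R. Psrc1, a microtubule-associated spindle protein (chr3:108383839-108388231), was at 35, 70.5, 13.1 and 55 FPKM and rose by 1.49 (SE 0.25, limma adjusted p = 0.03419). Its ratio was 2.02 in the CT26_102 stem and 4.19 in the CT26_CTL stem. On the log2(FPKM + 1) scale the 2 within-stem differences differed by -0.997, the widest in size of any member on that scale. With 1 library in each cell of the design, that difference was not tested. Raw ratios lay further apart for the low-level genes Tnfrsf18 (27.5 and 10.4), Jag2 (1.18 and 0.541) and Pltp (6.83 and 0.449).

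Tnfrsf18, the TNF receptor family member GITR (chr4:156026164-156028895), was at 0.149, 4.09, 0.174 and 1.81 FPKM, about 4.9, 150.6, 7 and 59.6 estimated reads. It was near the floor of the libraries without R, and the fitted log2(FPKM + 1) difference of 1.7 (SE 0.25, limma adjusted p = 0.02811) understates the raw ratios of 27.5 and 10.4, which rest on those few reads. Fbxw7, the substrate receptor of an SCF ubiquitin ligase (chr3:84815268-84979198), was at 1.68, 4.66, 1.15 and 2.86 FPKM and rose by 0.96 (SE 0.15, limma adjusted p = 0.03074). Notch1, a transmembrane receptor cleaved on ligand binding (chr2:26457903-26516663), was at 2.35, 4.45, 0.766 and 2.06 FPKM and rose by 0.75 (SE 0.14, limma adjusted p = 0.04128). Its libraries with and without R overlapped, since CT26_CTL_R was below CT26_102. Zmat3, an RNA-binding zinc finger protein also called Wig1 (chr3:32334792-32366014), was at 14.3, 21.8, 4.63 and 10.5 FPKM and rose by 0.8 (SE 0.16, limma adjusted p = 0.0441), with the same overlap. Without the mean-variance trend its limma adjusted p was 0.0513. Its ratio was 1.52 in the CT26_102 stem and 2.27 in the other.

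The other 8 signalling genes tested did not pass the test for R. Foxo3, a transcription factor held out of the nucleus by Akt, was at 4.06, 9.72, 4.93 and 6.74 FPKM, with a difference of 0.73 (95% interval 0.21 to 1.26, limma adjusted p = 0.07392) and ratios of 2.4 and 1.37. Sulf2, an extracellular heparan sulfate sulfatase, was at 2, 3.06, 0.762 and 1.9 FPKM, a difference of 0.58 (95% interval 0.17 to 0.98, limma adjusted p = 0.07184). Trp53inp2, an autophagy factor, was at 1.92, 3.18, 2.81 and 4.74 FPKM, a difference of 0.55 (limma adjusted p = 0.06167). These 3 had positive differences in both stems. Rap2b, a Ras-family GTPase, was at 10.8, 18.4, 8.23 and 9.35 FPKM, a difference of 0.44 (95% interval -0.02 to 0.9). Cgrrf1, a RING-finger ubiquitin ligase, differed by 0.37 (0.02 to 0.72). Ccnk, the cyclin partner of CDK12 and CDK13, differed by 0.23 (-0.18 to 0.65), Dyrk3, a kinase that dissolves stress granules, by 0.19 (-0.17 to 0.54), and Ptp4a3, the phosphatase PRL-3, by -0.05 (-0.45 to 0.35). The intervals of Ccnk, Dyrk3 and Ptp4a3 include 0, and those of Ccnk and Dyrk3 overlap the intervals of the called genes Zmat3 and Notch1, whose lower bounds were 0.38.

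The repair genes moved unevenly. Ercc5, the XPG endonuclease that cuts on the 3′ side of a lesion (chr1:44147744-44181260), was at 9.51, 37.9, 4.89 and 20.6 FPKM. It was about 4 times as high with R in each stem (ratios 3.99 and 4.21), and rose by 1.88 (SE 0.13, limma adjusted p = 0.01269), which ranks 58 of all tested genes in that order. Xpc, which recognises distorted DNA (chr6:91489305-91515888), was at 4.9, 5.33, 3.25 and 3.01 FPKM, and Ddb2, the damage sensor of ultraviolet lesions (chr2:91211572-91236982), was at 6.72, 5.85, 5.32 and 4.98. Neither differed with R beyond the spread, with log2 differences of 0.01 (95% interval -0.35 to 0.37, limma adjusted p = 0.9654) and -0.13 (-0.47 to 0.22, limma adjusted p = 0.5347). Both intervals end far below the lower bound for Ercc5, 1.56. Polk, a translesion polymerase (chr13:96480690-96542579), was at 5.96, 8.92, 3.74 and 6.82 FPKM, with a difference of 0.62 (SE 0.14, limma adjusted p = 0.05195) that was just outside the threshold and passed it when only genes of at least 5 FPKM were tested.

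**Figure D2:**
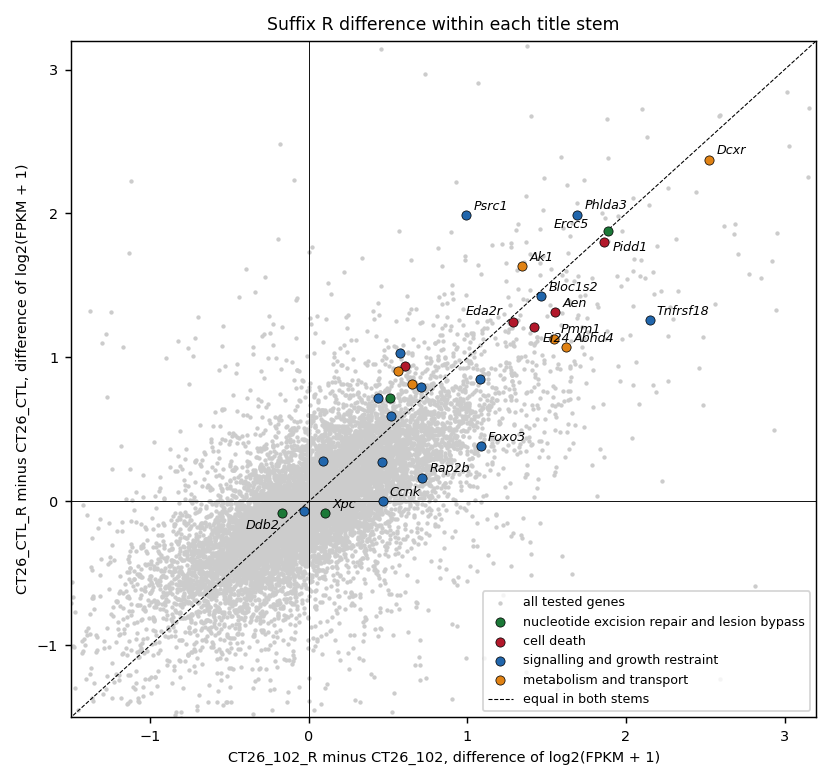
Difference between the library with R and the library without it on the log2(FPKM + 1) scale, in the CT26_102 stem (horizontal axis) and the CT26_CTL stem (vertical axis), with the members coloured by role over all tested genes in grey. Most members lie in the upper right, near the diagonal of equal differences, with Dcxr farthest out, Psrc1 above the diagonal and Xpc, Ddb2 and Ptp4a3 near the origin. The axes end at -1.5 and 3.2, and 105 tested genes fall outside them.

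The difference with R was also taken within each stem. A fold of at least 1.5 on the log2(FPKM + 1) scale was reached by 19 of the 30 members in the CT26_102 stem, by 22 in the CT26_CTL stem and by 17 in both, where 13.8%, 9.39% and 6.15% of all tested genes reached it. The difference was larger in the CT26_102 stem for 17 members and in the CT26_CTL stem for 13, and over all tested genes for 6761 and 5194. Among the 30, 27 were higher with R in both stems, as were 39.1% of all tested genes. Both libraries with R were above both without R for 18 members, against 22.3% of all tested genes. Tnfrsf18, which passed the filter through the libraries with R alone, is among these 18 and in each count of the fold. Apaf1, Zmat3, Notch1 and Ephx1 were called although their libraries overlapped, and for each of them the lower library with R was CT26_CTL_R and the higher one without was CT26_102. Where each library is a single measurement, no p-value was given within a stem.

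Members below the level for testing differed among themselves. Plcd4, a phosphoinositide phospholipase, was at 0.327, 2.07, 0.055 and 0.387 FPKM, about 49.8, 352.1, 10.2 and 58.9 estimated reads, and so was higher with R in both stems, by 6.32 and 7.03 times. Gdf15, a secreted stress cytokine, was at 0.0762, 0.369, 0.0818 and 0.381 FPKM, with ratios of 4.84 and 4.66 that rest on 3 to 16.5 estimated reads. Jag2, a Notch ligand, was at 0.666, 0.788, 0.117 and 0.0632 FPKM, and Pltp, the phospholipid transfer protein, was at 0.0531, 0.363, 0.193 and 0.0868. For Jag2 and Pltp the direction with R was opposite in the 2 stems.

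Promoter sequence was examined because most members tested were higher with R in both stems. The members were chosen with earlier results of these data in view, so this shared direction may follow in part from their choice. The p53 response element is a pair of decamers, each a short palindrome with a C and a G in its core, so a match on 1 strand is a match on both. In RefSeq promoter windows (GRCm38.p6, 250 bases before to 50 after a start site), 30 of the 35 members had a sequence. An exact decamer occurred in 5 of them (16.7%), against 9.55% of the 27025 genes with a window, and a full element of 2 adjoining decamers with at most 3 mismatches and the central C and G of both decamers unchanged in 2 (6.67%), against 1.63%. Among the 8308 tested genes with a window the shares were 7.94% for the decamer and 1.99% for the full element. Among 17 core p53 targets outside the 35 they were 41.2% and 29.4%. The differences between these shares were not tested. A full element may include an exact decamer, as the counts overlap for Aen. The stretches are shown in capitals for the match and in lower case for its flanks, from the 5′ to the 3′ end of the gene's strand, at chr7:78895932-78895961 (+) for Aen, chr4:156026132-156026161 (+) for Tnfrsf18, chr9:36797325-36797354 (-) for Ei24, chr14:54259274-54259303 (+) for Abhd4, chr13:96519399-96519428 (-) for Polk and chr3:61364530-61364556 (+) for Rap2b.
Aen full element: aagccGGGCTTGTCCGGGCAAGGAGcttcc
Tnfrsf18 full element: tctgtAGCCTAGCCAGGGCGAGTTTgctgg
Ei24 decamer: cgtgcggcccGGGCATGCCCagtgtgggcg
Abhd4 decamer: cgacccggcaGGGCTTGTTTactatggctg
Polk decamer: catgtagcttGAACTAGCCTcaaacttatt
Rap2b decamer: gcgacgtactGGGCATGCTCggctggg
Aen, Tnfrsf18, Ei24 and Abhd4 rose with R, and Polk and Rap2b did not pass the test. The element of Aen has 3 mismatches and begins at position 10 from 1 of its annotated starts and at -121 from the other. That of Tnfrsf18 has 3 mismatches and begins at position -185. The windows of Dcxr, Ercc5, Phlda3 and Pidd1 are not among those with a match, which says only that these letters are not in this stretch.

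Genes with related functions gave a comparison for each role. Of 21 core p53 targets outside the 35, 19 were tested, 14 rose and none fell, with a median difference of 1.443, and the largest were Btg2 at 3.32 (SE 0.19, limma adjusted p = 0.0117), Mdm2 at 3.11 (SE 0.14, 0.008861), Trp53inp1 at 2.63 (SE 0.13, 0.008861) and Fas at 2.41 (SE 0.28, 0.02011). Btg2 restrains proliferation, Mdm2 degrades p53, Trp53inp1 acts in stress and autophagy, and Fas is a death receptor. Of the 26 other nucleotide excision repair genes 1 rose and 1 fell, with a median of 0.006. The gene that rose was the TFIIH subunit Gtf2h5, at 14.4, 24.9, 19.6 and 32.6 FPKM (difference 0.73, limma adjusted p = 0.03431), and the one that fell was the DNA ligase Lig1, at 39, 18.2, 33.9 and 21.3 (difference -0.85, limma adjusted p = 0.03624). Ercc5 was called in a pathway of which most genes did not pass the test.

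**Figure D3:**
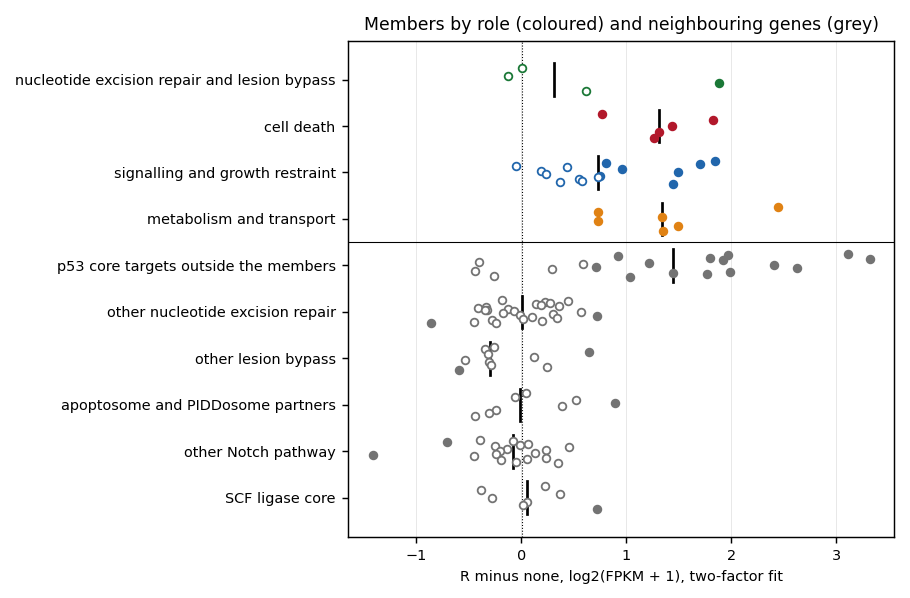
Log2(FPKM + 1) difference with R for each tested gene, by role for the p53 targets described here (coloured) and by related list (grey), with filled points for genes past a limma adjusted p of 0.05 and a bar at each median. The members of cell death and of metabolism lie wholly above 0, while the other repair, lesion bypass and Notch genes are spread around it.

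Of 10 tested lesion bypass genes outside the 35, Rev1 rose (6.99, 11.7, 4.77 and 7.84 FPKM, difference 0.64, limma adjusted p = 0.0441) and Usp1 fell (16.4, 10.3, 15.2 and 10 FPKM, difference -0.59, limma adjusted p = 0.04847), with a median of -0.293. Rev1 is a translesion polymerase, and Usp1 removes ubiquitin from PCNA. Beside Apaf1 and Pidd1, 8 genes of their complexes were tested and 1 rose, Cycs (cytochrome c) by 0.89 (limma adjusted p = 0.03123), with a median of -0.008. Beside Notch1 and Jag2, 19 genes of the Notch pathway were tested, none rose and 2 fell, with a median of -0.074. The nuclear effector Rbpj was at 17.9, 11.8, 24.8 and 13.3 FPKM (difference -0.71, limma adjusted p = 0.0428), and the receptor protease Adam10 at 11.7, 6.29, 9.01 and 1.48 (difference -1.41, limma adjusted p = 0.04689). Notch1 thus rose while these 2 genes of its pathway fell.

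For Fbxw7, 7 other SCF genes were tested and 1 rose, the ubiquitin-conjugating enzyme Cdc34 by 0.72 (limma adjusted p = 0.03319), with a median of 0.052. In the CDK12 and CDK13 list for Ccnk (5 tested, median 0.233), the other FOXO factors (2 tested, median -0.351), the xenobiotic enzymes beside Ephx1 (8 tested, median 0.103) and the other adenylate kinases (3 tested, median 0.163), no gene passed the test in either direction. Ephx1 and Ak1 were called with R, and none of the tested genes in the lists beside them was. Ephx2, the other epoxide hydrolase listed, was at 0.192 to 0.344 FPKM and was not tested. The tested genes beside Ephx1 are therefore enzymes of other kinds.

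Between the stems, 14 of the 30 members were higher in CT26_102 than in CT26_CTL, none was lower and 16 did not pass the test, where 12.5% of all tested genes were called higher and 9.44% lower. The largest were Zmat3 at 1.21 (SE 0.16, limma adjusted p = 0.01484), Apaf1 at 1.13 (SE 0.16, 0.01533), Ephx1 at 0.94 (SE 0.11, 0.01081), Abhd4 at 0.91 (SE 0.17, 0.02783) and Notch1 at 0.88 (SE 0.14, 0.02086). For Zmat3, Apaf1, Ephx1 and Notch1 the stem difference was larger than that with R, 0.8, 0.77, 0.73 and 0.75. The median stem difference was 0.573 over the members tested and 0.054 over all genes. Limma called 0 members without the suffix term (5 had an unadjusted p under 0.05) and 0 without the filter on low values (24 of 35 had). The share of calls that were higher in CT26_102 was 57%. It was 47.5% after median-of-ratios scaling, with 12 members called, 48.6% with a filter of 5 FPKM, and 71.6% after scaling to the same sum, which moved the median of all genes to 0.166 and called 19 members.

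**Figure D4:**
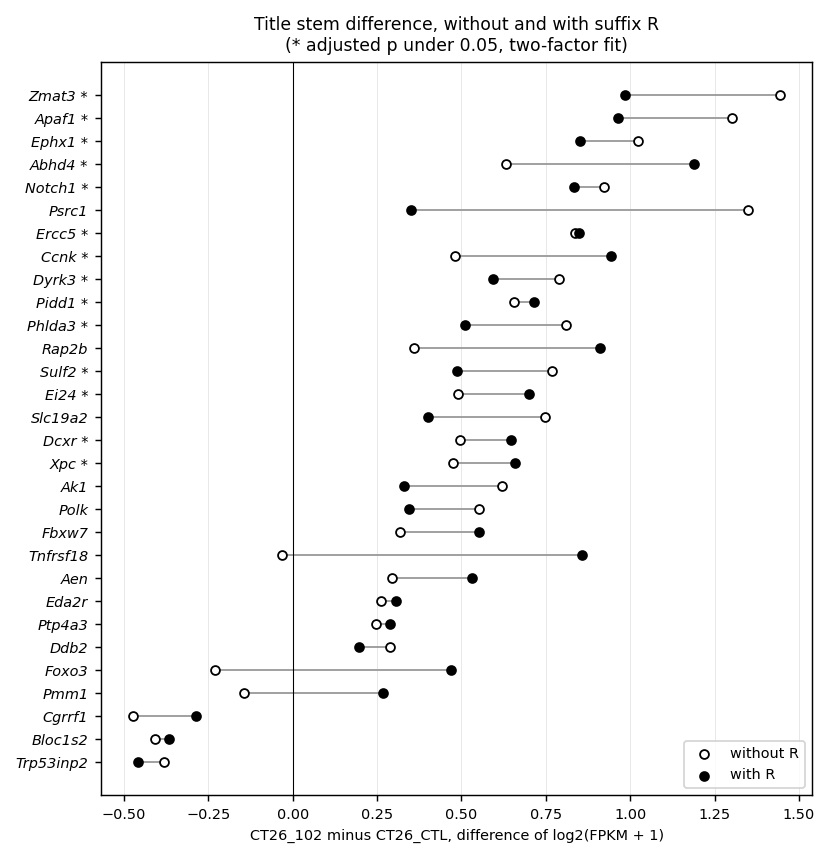
Difference CT26_102 minus CT26_CTL of each tested member on the log2(FPKM + 1) scale, as an open point for the libraries without R and a filled point for those with R, ordered by the fitted difference, with an asterisk for a limma adjusted p under 0.05. For 24 members both points lie above 0, and for Trp53inp2, Bloc1s2 and Cgrrf1 both lie below it.

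In both divisions 10 members were called higher: Ercc5, Apaf1, Pidd1, Ei24, Phlda3, Zmat3, Notch1, Dcxr, Ephx1 and Abhd4. The matching share of all tested genes was not taken for this count, nor for members called in a single division or in neither. These counts are therefore given without a background. For Ercc5 the stem difference was 0.84 (SE 0.13, limma adjusted p = 0.01766), so its levels ran from 4.89 in CT26_CTL to 37.9 in CT26_102_R. Pidd1 (0.69, 0.02696), Phlda3 (0.66, 0.02574), Ei24 (0.59, 0.04006) and Dcxr (0.57, 0.04065) had smaller stem differences with these limma adjusted p values. For these 5, each of the 2 libraries with R was above each library without it, whichever the stem. Aen, Eda2r, Tnfrsf18, Fbxw7, Psrc1, Bloc1s2, Pmm1, Slc19a2 and Ak1 were called with R and not between the stems. Of these, Ak1, Psrc1 and Slc19a2 gained a stem call with the filter of 5 FPKM, and Aen, Ak1 and Slc19a2 after scaling to the same sum. Whether the stem differences of these 9 differ from those of the other 10 was not tested.

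Dyrk3, Ccnk, Xpc and Sulf2 were called between the stems and not with R. Dyrk3 was at 7.21, 7.73, 3.75 and 4.78 FPKM (stem difference 0.69, SE 0.14, limma adjusted p = 0.03129) and Ccnk at 18.4, 25.8, 12.9 and 13 (0.71, SE 0.16, limma adjusted p = 0.04044). For Xpc the stem difference was 0.57 (SE 0.14, limma adjusted p = 0.04813) and for Sulf2 0.63 (SE 0.16, limma adjusted p = 0.04922). Each of these 4 was higher in CT26_102 than in CT26_CTL with and without R, and the calls of Xpc and Sulf2 were lost with a pseudocount of 0.1 and with median-of-ratios scaling. Both CT26_102 libraries were above both CT26_CTL libraries for 11 members, against 28% of all tested genes, and below them for Cgrrf1 (5.85, 8.44, 8.5 and 10.5 FPKM). The difference was positive in both suffix groups for 24 of the 30 members and for 43.4% of all tested genes. Of the core p53 targets outside the 35, 4 were called higher and 2 lower between the stems.

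Ddb2, Polk, Ptp4a3, Rap2b, Foxo3, Trp53inp2 and Cgrrf1 passed the test in neither division. Rap2b had a stem difference of 0.63 (limma adjusted p = 0.06186) and Polk of 0.45 (0.07713), and both were positive in each suffix group. Rap2b gained a stem call with upper-quartile scaling, with scaling to the same sum and with the filter of 5 FPKM, and Polk with scaling to the same sum. Ptp4a3, at 1.15, 1.1, 0.811 and 0.725 FPKM, was the least abundant of the 7.

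Several members share exonic bases with a neighbouring gene, and the strand setting of the counting is not known from the sources used here, so reads in those bases cannot be told apart. The shared part was 54.5% of the exonic length of Rap2b (with B430305J03Rik, listed at 0), 29.8% of Plcd4 (Zfp142), 27.2% of Tnfrsf18 (Gm16008, at most 0.0501 FPKM), 23.8% of Ddb2 (Acp2) and 19.3% of Pltp (Ctsa). Ctsa was at 28.4 to 35.5 FPKM, against 0.0531 to 0.363 for Pltp. Zfp142 was at 1.97 to 4.29, against 0.055 to 2.07 for Plcd4, and Acp2 at 6.67 to 7.93, against 4.98 to 6.72 for Ddb2. It was 7.5% for Notch1, 6.7% for Ei24, 3.7% for Ephx1 and 2.6% for Sulf2. Among the members with the largest rises with R, Dcxr, Ercc5, Phlda3 and Pidd1 had no such overlap.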

How the data were processed

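The deposited table holds FPKM per gene for 4 libraries, made by the authors; per the labels' protocols the libraries came from total RNA with a SMARTER mRNA-Seq kit, and per the submitters' processing notes the builds were GRCm38 and mm10. The aligner, counter and strand setting: not given in the sources used here. Columns were matched to samples by title. Values were tested as log2(FPKM + 1) for the 11955 genes that reached an FPKM of 1 in 2 or more libraries. limma 3.58.1 in R 4.3.3 (lmFit, eBayes with trend, two-sided, Benjamini-Hochberg, threshold 0.05) fitted title stem and suffix together, with 1 residual and 4.01 prior degrees of freedom. This fit was tested on simulated data. An exact permutation test of 2 against 2 cannot give a p below 0.333. Gene positions and exonic lengths came from GENCODE, in which 55154 of the 55335 identifiers matched. Depth was estimated from low FPKM values of genes with 1 transcript, of which 31.7% to 33.9% were whole reads within 0.02, too few to recover counts.

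Every member was given with its values. From each related list (core p53 targets, p53 family, other excision repair, lesion bypass, apoptosome and PIDDosome, Notch, SCF, CDK12 and CDK13, FOXO, xenobiotic enzymes, adenylate kinases) up to 4 called genes with the largest differences were named. The result of 1 further list is not reported here. Members and lists were chosen with earlier results of these data known. The alternatives were another pseudocount, filter, scaling, trend setting and term, and leaving out each library.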

Additional observations from a re-analysis of the deposited data

Results flagged for a closer look

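For 3 members the difference with R had opposite signs in the 2 title stems, so that the within-stem differences on the log2(FPKM + 1) scale lay apart. None of these differences was tested, since each stem holds 1 library with R and 1 without. For Xpc the difference in CT26_102 minus that in CT26_CTL was 0.185, with levels of 4.9 and 5.33 FPKM without and with R in the first stem and 3.25 and 3.01 in the second. For Jag2 it was 0.173, at 0.666 and 0.788 FPKM against 0.117 and 0.0632. For Pltp it was 0.507, at 0.0531 and 0.363 FPKM against 0.193 and 0.0868. Jag2 and Pltp were below 1 FPKM in every library, and groups of 2 libraries were too small to look for an outlying one.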

How the results depend on the processing

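The counts rest on the fit with both terms and on the filter. Called genes for R went from 1541 to 1 without the stem term (the "no replicate block" fit; 1281 had an unadjusted p under 0.05) and to 0 without the filter (4937), and called members from 19 to 0 and 0 (15 and 25 unadjusted). For the stem, 2623 genes became 34 and 0 (5802 unadjusted), and 14 members became 0 and 0 (5 and 24). Leaving out 1 library, with 1 term, limma called 2 to 11 genes and 0 to 0 members for R, and 0 to 16 genes and 0 to 0 members for the stem. Such a fit mixes stem with suffix by its construction, and its lone library is assumed to vary like the others. With both terms, 3 libraries leave only the intact pair's difference and no test. Xpc reversed with R under upper-quartile scaling (-0.041) and scaling to the same sum (-0.082), and Pmm1 between the stems under median-of-ratios scaling (-0.002).

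Signs that turned without 1 library had these ranges, as log2 differences. With R they were -0.32 to 0.34 for Xpc, -0.269 to 0.019 for Ddb2, -0.194 to 0.093 for Ptp4a3, -0.014 to 0.896 for Rap2b, -0.208 to 0.58 for Dyrk3 and -0.239 to 0.704 for Ccnk. The 19 members called with R stayed positive, from wide ranges for Zmat3 (0.082 to 1.525), Apaf1 (0.123 to 1.426) and Ephx1 (0.222 to 1.244), against 2.127 to 2.773 for Dcxr. Between the stems they were -0.102 to 1.786 for Ercc5, -0.245 to 1.615 for Pidd1, -0.364 to 1.188 for Aen, -0.115 to 1.304 for Ei24, -0.359 to 0.928 for Eda2r, -0.335 to 1.656 for Phlda3, -0.661 to 1.487 for Tnfrsf18, -0.105 to 0.976 for Fbxw7, -0.143 to 1.845 for Psrc1, -0.422 to 0.662 for Foxo3, -1.119 to 0.347 for Bloc1s2, -0.691 to 1.834 for Dcxr, -0.71 to 0.832 for Pmm1 and -0.343 to 1.292 for Ak1. The ranges take in fits with 1 term and with both. With both, the sign with R turned for Xpc alone (0.103 in CT26_102, -0.083 in CT26_CTL). Between the stems it turned for Foxo3 (-0.23 without R, 0.47 with R), Tnfrsf18 (-0.031, 0.858) and Pmm1 (-0.144, 0.267) alone. The other signs turned only with 1 term, where stem and suffix are mixed by construction. With both terms the stem difference of Ercc5 was 0.836 without R and 0.849 with R. Why the signs of Xpc, Foxo3, Tnfrsf18 and Pmm1 turned was not tested. Depth limits Perp, Gdf15 and Pltp, which rest on few estimated reads.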

Other observations

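Gm36961, a pseudogene on the strand of Ephx1 that shares 3.7% of its exonic length, was singled out after its values were seen. It was at 3.63 FPKM in CT26_102 and 26.9 in CT26_102_R, and at 1.93 in CT26_CTL and 0.246 in CT26_CTL_R, so it was high in CT26_102_R alone, whereas Ephx1 itself was higher with R in both stems.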
